A study of Mus musculus with 12 samples.

Results

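Cish and 9 further genes of cytokine signalling were followed in mouse kidney: the suppressor genes Socs1, Socs2 and Socs3, the growth hormone receptor gene Ghr, the kinase genes Jak1 and Jak2, and the transcription factor genes Stat3, Stat5a and Stat5b. They were taken by symbol from the deposited count table, and all 10 were found among its 24062 genes and among the 14970 that passed the filter on low counts. The genes were chosen by their place in the pathway and by the measured levels of Cish in these libraries, which were known, and they were taken from the deposited table that sets UNx against sham kidneys. The levels of Cish and the nephrectomy differences of all 10 genes are therefore a description without a test, and the comparisons of CrePlus with CreMinus kidneys use the same libraries and are not independent of that choice. RNA-seq was run on total kidney RNA of 12 adult mice of a model named for Pkd1, the main gene of polycystic kidney disease, with or without an inducible Cre. Mice of all 4 groups were induced with tamoxifen, were 6 to 8 weeks old, and gave their kidneys 4 weeks after the operation. The groups were CreMinus mice with a sham nephrectomy, CrePlus mice with a sham nephrectomy, CreMinus mice with unilateral nephrectomy (UNx, which leaves 1 kidney) and CrePlus mice with UNx, with 3 libraries each. The labels name neither the Pkd1 allele nor the promoter or cell type of the Cre, and describe no group without tamoxifen.

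In this pathway a hormone or cytokine such as growth hormone binds its receptor, the receptor-bound JAK kinases phosphorylate STAT proteins, and these enter the nucleus and switch on target genes. Cish, Socs1, Socs2 and Socs3 are such target genes, and their products bind receptors, JAKs or other signalling proteins and turn the signal down. In liver, growth hormone acts largely through JAK2 and STAT5, with Cish and Socs2 as classical targets, while cytokines of the interleukin-6 family act through JAK1 and STAT3, with Socs3 as a target. Protein levels and STAT phosphorylation were not measured here.

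STAT proteins bind the palindrome TTCNNNGAA, which reads the same on both strands, and it was searched in RefSeq windows (GRCm38.p6) from 250 bases before to 50 bases after an annotated transcript start. Of the 10 genes, 9 had a window, with 12 windows in all, and the motif was in 1 window of Cish and 1 of Socs3. It was in 8.30% of all 32851 windows, and 0.457% held it 2 or more times, as the Cish window did. Socs2 had no window. The sites are shown because Cish was highest in sham CrePlus kidneys, as was Socs2, and Socs3 was highest on average in UNx CrePlus kidneys. Each is printed as 30 bases, 5′ to 3′ on the gene's strand, with the motif in capitals.
Cish, chr9:107296654-107296683, plus strand: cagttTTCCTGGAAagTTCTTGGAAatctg
Socs3, chr11:117969501-117969530, minus strand: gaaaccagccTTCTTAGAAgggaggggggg
In Cish the matches covered bases 1 to 9 and 12 to 20 from the annotated start, and in Socs3 the match lay 154 to 146 bases before it. A match in these letters is a description of the sequence; no binding was measured.

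Library totals fell into 2 ranges, 18914300 to 22480895 counts for 8 kidneys and 41699032 to 42785476 for the other 4. All 3 UNx CrePlus libraries and 1 UNx CreMinus library (replicate 1) were in the deeper range, so a term for depth is told apart from the UNx CrePlus group by that 1 library only. Xist and Y-linked reads split the libraries into 7 female and 5 male. The males were replicate 3 of both sham groups, replicate 1 of both UNx groups and replicate 2 of the UNx CrePlus group. Levels are given as CPM, read counts scaled to 1 common library total. Pkd1, the gene that names the model, was at 52.0 ± 10.5 CPM with Cre and 65.0 ± 10.3 CPM without it after the sham operation, and at 43.4 ± 3.28 CPM with Cre and 56.8 ± 12.9 CPM without it after UNx (SD, n = 3). With the quasi-likelihood test of edgeR its log2 difference between CrePlus and CreMinus did not pass in sham (-0.32 ± 0.18 SE, adjusted p = 1.0) or UNx kidneys (-0.39 ± 0.18, adjusted p = 0.482), and the labels do not give the deleted part. All 4 proximal tubule markers (Lrp2, Cubn, Slc34a1 and Slc5a2) had counts in every library, with a sum of 8699 to 11409 CPM.

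Cish encodes CIS, which binds phosphorylated cytokine receptors, and it was highest in sham CrePlus kidneys. Its level was 55.0, 38.7 and 77.7 CPM in sham CrePlus replicates 1, 2 and 3. In sham CreMinus kidneys it was 29.6, 22.3 and 21.0 CPM, so every sham CrePlus kidney lay above every sham CreMinus kidney. After UNx it was 15.5, 30.8 and 25.2 CPM in CreMinus replicates 1, 2 and 3 and 20.4, 15.4 and 26.9 CPM in CrePlus replicates 1, 2 and 3. The highest of the 9 libraries outside the sham CrePlus group was thus UNx CreMinus replicate 2, still below the lowest sham CrePlus library. After the sham operation the mean was 57.1 ± 19.6 CPM with Cre and 24.3 ± 4.67 CPM without it, and after UNx it was 20.9 ± 5.76 CPM with Cre and 23.8 ± 7.73 CPM without it (SD, n = 3). The 3 lower means lay within 1 SD of each other, and only the step from sham CrePlus to the rest was larger than the spread.

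**Figure D1:**
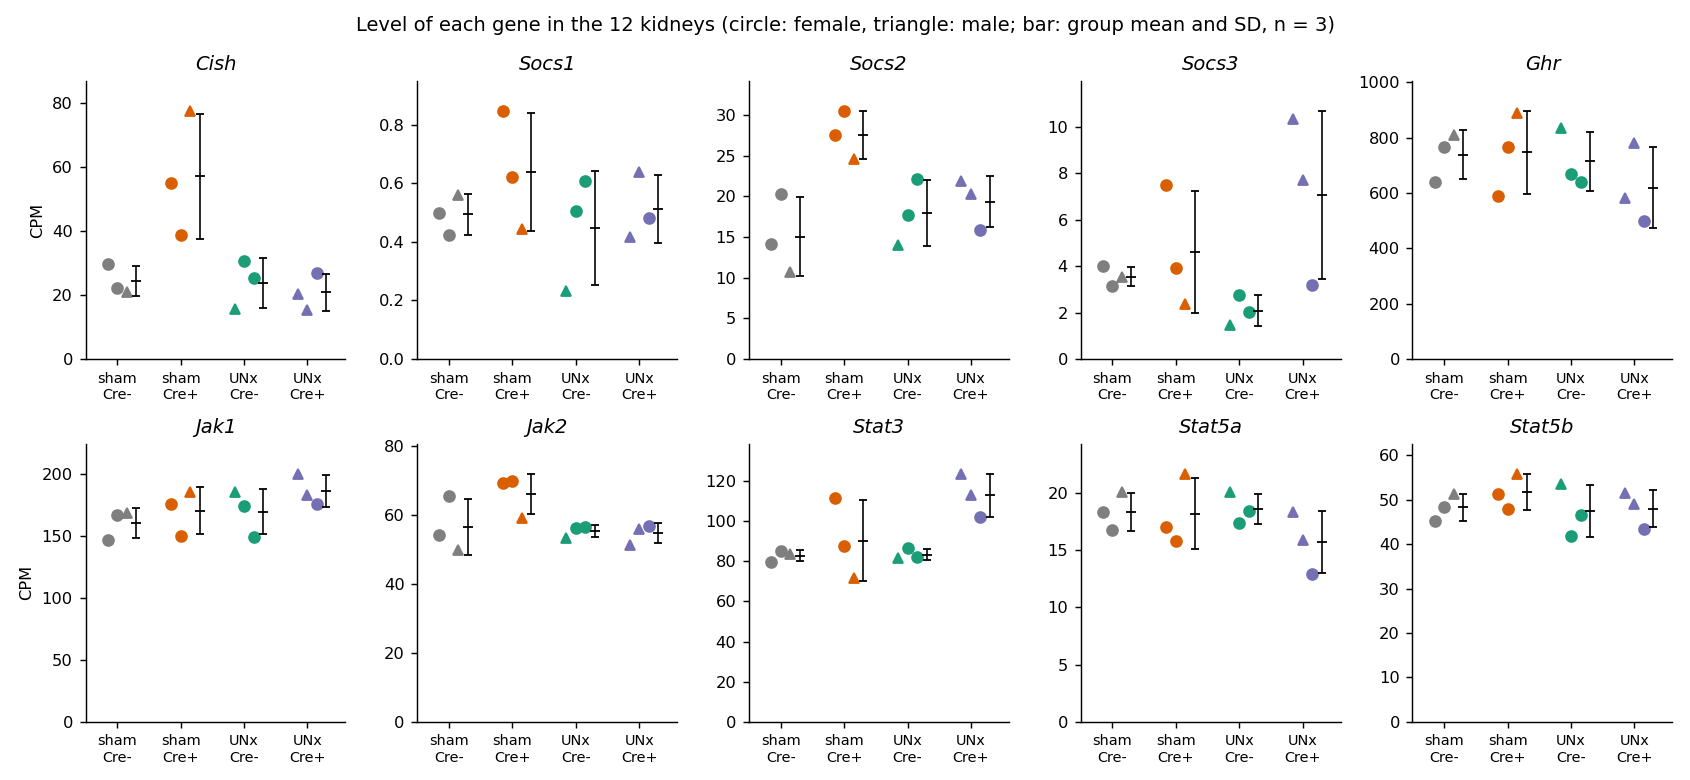
Level of each of the 10 genes in CPM (vertical axis from 0) in the 12 kidneys by group, with circles for female and triangles for male kidneys and black bars for the group mean and SD (n = 3). The 3 sham CrePlus kidneys hold the 3 highest values of Cish (38.7 to 77.7 CPM) and of Socs2 (24.6 to 30.5 CPM), and Socs3 is highest in UNx CrePlus replicate 1 at 10.3 CPM.

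On the log2 scale Cish was higher by 1.23 ± 0.31 (SE) in CrePlus than in CreMinus sham kidneys, a 2.35-fold difference. In UNx kidneys the same comparison gave -0.19 ± 0.31. UNx CrePlus kidneys were lower than sham CrePlus kidneys by a log2 fold change of -1.45 ± 0.31, and these groups did not overlap. UNx and sham CreMinus kidneys differed by -0.03 ± 0.31. These comparisons share the sham CrePlus or the sham CreMinus libraries, so the difference with Cre in sham kidneys and that with UNx in CrePlus kidneys rest on the same 3 high values. In the authors' deposited tables the log2 fold change of Cish was 0.69 for sham CrePlus against CreMinus, 0.76 in the version without sham CrePlus replicate 1, and -0.94 for CrePlus UNx against sham. The authors' deposited tables of UNx against sham libraries gave -0.39 and, in a second version, -0.37, and that of UNx CrePlus against UNx CreMinus kidneys gave -0.13. An edgeR fit of only the groups compared gave 1.23 for Cre in sham kidneys and -1.45 for UNx in CrePlus kidneys. The deposited values are thus on a smaller scale for the same libraries, and the 2 sets are not compared in size.

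Sham CrePlus replicate 3, the library with the most Cish, also held reads of fat cells. Its summed level of 4 fat markers (Adipoq, Plin1, Cfd and Lep) was 19.7 CPM, made up mainly of Cfd at 8.60, Plin1 at 5.88 and Adipoq at 5.04 CPM. The sum was 0.0246 to 1.06 CPM in the other 11 libraries. Lep had 3 counts there and a count of 0 in every other library. Marker sums of podocytes (361 CPM), endothelium (219 CPM) and fibroblasts (95.7 CPM) were also lowest of the 12 libraries in sham CrePlus replicate 3. Its thick limb and distal tubule sum (6527 CPM) was undercut only by UNx CrePlus replicate 1. Its collecting duct sum (296 CPM) was undercut only by UNx CrePlus replicate 2. The part of these cell types in the Cish level of that library was not tested. Without that library Cish was higher by a log2 fold change of 0.95 in CrePlus than in CreMinus sham kidneys, and UNx CrePlus kidneys were lower than sham CrePlus kidneys by -1.17. Sham CrePlus replicates 1 and 2, with fat sums of 0.170 and 0.0956 CPM, remained above all 9 libraries of the other groups. In the 7 female libraries alone, with 1 UNx CrePlus kidney, the log2 fold changes were 0.85 and -0.80. With terms for sex and depth the UNx difference in CrePlus kidneys was -0.85.

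**Figure D2:**
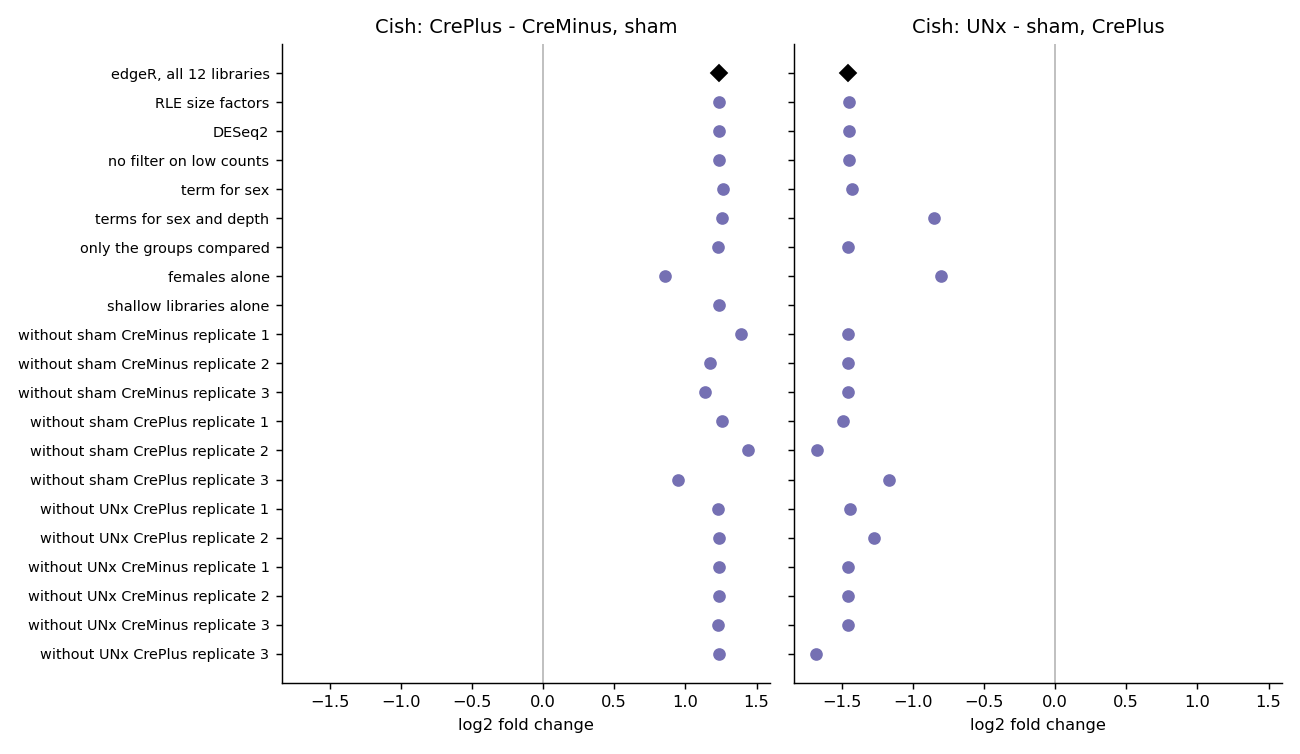
Log2 fold change of Cish (horizontal axis) in sham kidneys, CrePlus minus CreMinus, and in CrePlus kidneys, UNx minus sham, for the fit of all 12 libraries (diamond) and each alternative (circles, named on the vertical axis). All values on the left are above 0 and all on the right below 0; the smallest in size are those of the females alone, 0.85 and -0.80.

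Socs2 encodes a suppressor that limits growth hormone signalling, and like Cish it was highest in the 3 sham CrePlus kidneys. It was at 27.5, 30.5 and 24.6 CPM in sham CrePlus replicates 1, 2 and 3 and at 14.1, 20.3 and 10.7 CPM in sham CreMinus kidneys. In UNx kidneys it was at 13.99, 17.8 and 22.1 CPM in CreMinus and at 21.9, 20.3 and 15.9 CPM in CrePlus replicates. The sham groups did not overlap, and the 6 UNx kidneys were mixed and all lay below the lowest sham CrePlus kidney. The log2 difference with Cre was 0.87 ± 0.23 (SE) in sham kidneys and did not pass with edgeR (adjusted p = 0.725). In UNx kidneys it was 0.11 ± 0.23 (adjusted p = 0.904). Within CrePlus kidneys the UNx difference was -0.51 ± 0.23, and within CreMinus kidneys it was 0.25 ± 0.23. The former was -0.00062 with terms for sex and depth and -0.87 in females alone. The order of libraries within the sham CrePlus group was not that of Cish: replicate 3 was highest for Cish and lowest for Socs2. Socs1, a suppressor of interferon signalling that binds JAKs directly, had only 9 to 26 counts per library and 0.231 to 0.848 CPM. Its groups overlapped in all 4 comparisons of Cre or surgery.

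**Figure D3:**
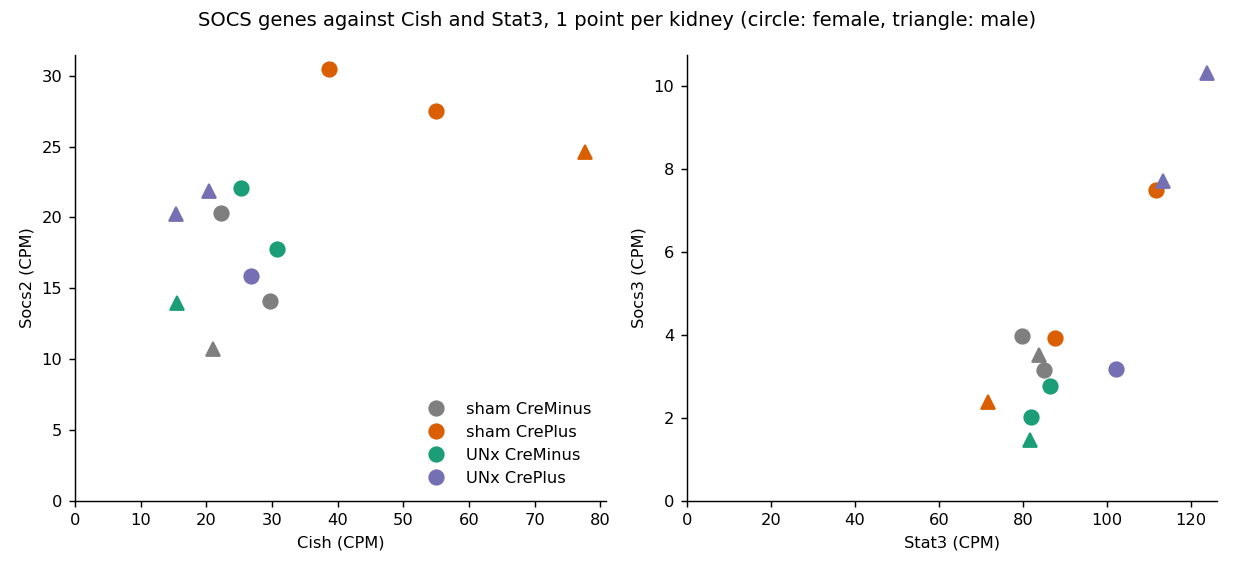
Socs2 against Cish (left) and Socs3 against Stat3 (right), both axes in CPM from 0, 1 point per kidney, coloured by group, with circles for females and triangles for males. The 3 sham CrePlus kidneys stand apart on the left; on the right UNx CrePlus replicates 1 and 2 and sham CrePlus replicate 1 stand apart, with Socs3 at 7.50 to 10.3 CPM and Stat3 at 112 to 124 CPM.

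Socs3, which shuts down signalling through the interleukin-6 receptor chain gp130, and Stat3, the transcription factor of that route, were highest in UNx CrePlus replicate 1, while sham CrePlus replicate 1 was high for them as it was for Cish. Socs3 was at 10.3, 7.70 and 3.18 CPM in UNx CrePlus replicates 1, 2 and 3 and at 1.47, 2.76 and 2.03 CPM in UNx CreMinus kidneys. In sham kidneys it was at 7.50, 3.92 and 2.37 CPM in CrePlus and at 3.98, 3.15 and 3.51 CPM in CreMinus replicates. The UNx groups did not overlap, but the lowest UNx CrePlus kidney was within 1 CPM of the highest UNx CreMinus kidney. Stat3 was at 124, 113 and 102 CPM in UNx CrePlus and at 81.6, 86.4 and 81.9 CPM in UNx CreMinus kidneys, again without overlap. Its sham levels were 112, 87.5 and 71.7 CPM in CrePlus and 79.8, 85.0 and 83.7 CPM in CreMinus replicates.

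With Cre in UNx kidneys the log2 difference was 1.77 ± 0.48 (SE) for Socs3 (3.42-fold, adjusted p = 0.283) and 0.44 ± 0.14 for Stat3 (1.36-fold, adjusted p = 0.344), and neither passed with edgeR. In sham kidneys it was 0.38 ± 0.47 for Socs3 and 0.13 ± 0.14 for Stat3 (adjusted p = 1.0 for both), and without sham CrePlus replicate 1 these were -0.17 and -0.06. DESeq2 gave Socs3 an adjusted p of 0.0175 in UNx kidneys and 0.0462 for Cre averaged over surgery, where edgeR gave 0.235. The authors' deposited table for UNx CrePlus against CreMinus kidneys gave adjusted p-values of 0.00792 for Socs3 and 0.0201 for Stat3. Without UNx CrePlus replicate 1 the Socs3 difference was 1.38, and in females alone, with replicate 3 as the only UNx CrePlus kidney, it was 0.41, against 0.29 for Stat3. UNx against sham gave Socs3 -0.78 ± 0.48 in CreMinus and 0.61 ± 0.46 in CrePlus kidneys, the former without overlap. For Stat3 these were 0.01 ± 0.14 and 0.32 ± 0.14. In females alone the CrePlus values were -0.84 for Socs3 and 0.04 for Stat3. Without 1 library the CrePlus value of Socs3 ran from 0.23 (without UNx CrePlus replicate 1) to 1.15 (without sham CrePlus replicate 1), and that of Stat3 from 0.18 (without sham CrePlus replicate 3) to 0.50 (without sham CrePlus replicate 1).

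The libraries with high Socs3 and Stat3 also held the most reads of fibroblast genes. The summed level of 4 fibroblast markers (Col1a1, Col3a1, Pdgfrb and Dcn) was 413 and 331 CPM in UNx CrePlus replicates 1 and 2 and 298 CPM in sham CrePlus replicate 1. It was 95.7 to 212 CPM in the other 9 libraries. The sum of the 5 of 6 myeloid markers found was 151 and 178 CPM in UNx CrePlus replicates 1 and 2, 93.8 in replicate 3 and 98.1 to 103 in UNx CreMinus kidneys. It was highest, at 226 CPM, in sham CreMinus replicate 3, where Socs3 was at 3.51 CPM. The summed level of 4 markers of the thick limb and distal tubule (Umod, Slc12a1, Slc12a3 and Calb1) was 5815, 6752 and 8529 CPM in UNx CrePlus replicates 1, 2 and 3 and 8951 to 9279 CPM in UNx CreMinus kidneys, without overlap. Podocyte and collecting duct sums were 507 and 327 CPM in UNx CrePlus replicate 1 and 373 and 226 CPM in replicate 2. These were below all UNx CreMinus kidneys (519 to 748 and 336 to 453 CPM). In UNx CrePlus replicate 3 the sums were 688 and 475 CPM. In whole tissue, more cells of a type and more RNA per cell cannot be told apart, and the part of these cell types in the result was not tested.

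Ghr and the kinase and STAT5 genes varied little between the groups in the fit of all 12 libraries. Ghr, the receptor at the head of the growth hormone route, was at 748 ± 150.0 CPM with Cre and 739 ± 89.5 CPM without it after the sham operation, and at 620 ± 146 and 716 ± 106 CPM after UNx (SD, n = 3). Its libraries ran from 497 to 888 CPM, and its groups overlapped in all 4 comparisons of Cre or surgery. Jak1, the kinase of many interferon and gp130 receptors, ranged from 147 to 200.2 CPM over the 12 libraries. Stat5a ranged from 12.9 to 21.7 CPM and Stat5b, the main STAT of growth hormone signalling in liver, from 41.9 to 55.9 CPM. These 3 genes overlapped in the same 4 comparisons. The largest of their log2 differences with Cre was -0.25 ± 0.15 for Stat5a in UNx kidneys, and it did not pass with edgeR (adjusted p = 0.601). In females alone, with 1 UNx CrePlus kidney, the difference with Cre in UNx kidneys was larger, at -0.47 for Stat5a and -0.39 for Ghr.

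Jak2, the kinase bound to the growth hormone receptor, had a small difference in the direction of that of Cish. It was at 69.2, 69.7 and 59.2 CPM in sham CrePlus and at 51.4, 55.9 and 56.7 CPM in UNx CrePlus replicates, without overlap (log2 fold change -0.27 ± 0.11). In sham CreMinus kidneys it was at 54.1, 65.6 and 49.8 CPM, which overlapped with sham CrePlus kidneys. The log2 difference with Cre in sham kidneys was 0.23 ± 0.11 and did not pass with edgeR (adjusted p = 1.0). In UNx kidneys it was -0.02 ± 0.11 (adjusted p = 0.974).

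Sex, which was not a labelled group, ordered 5 of the 10 genes in the same way in all 4 groups. Males lay above females in each group for Ghr, Jak1, Stat5a and Stat5b and below them for Jak2. Over all tested genes 11.5% had males above and 11.7% males below females in all 4 groups. Ghr was at 812 CPM in the male and at 639 and 767 in the females of the sham CreMinus group, and at 837 against 669 and 640 in the UNx CreMinus group. In a fit with a sex term the male minus female log2 difference was 0.35 ± 0.10 (SE) for Ghr, 0.29 ± 0.07 for Stat5a, 0.20 ± 0.05 for Stat5b, 0.15 ± 0.07 for Jak1 and -0.16 ± 0.06 for Jak2. Cish and Socs2 were lower in males in 3 groups and higher in 1: for Cish the exception was the sham CrePlus group and for Socs2 the UNx CrePlus group. The 3 male UNx kidneys had the 3 lowest Cish levels of all 12 libraries (15.4 to 20.4 CPM). All 3 were also in the deeper range of library totals, with the female UNx CrePlus replicate 3 (26.9 CPM).

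**Figure D4:**
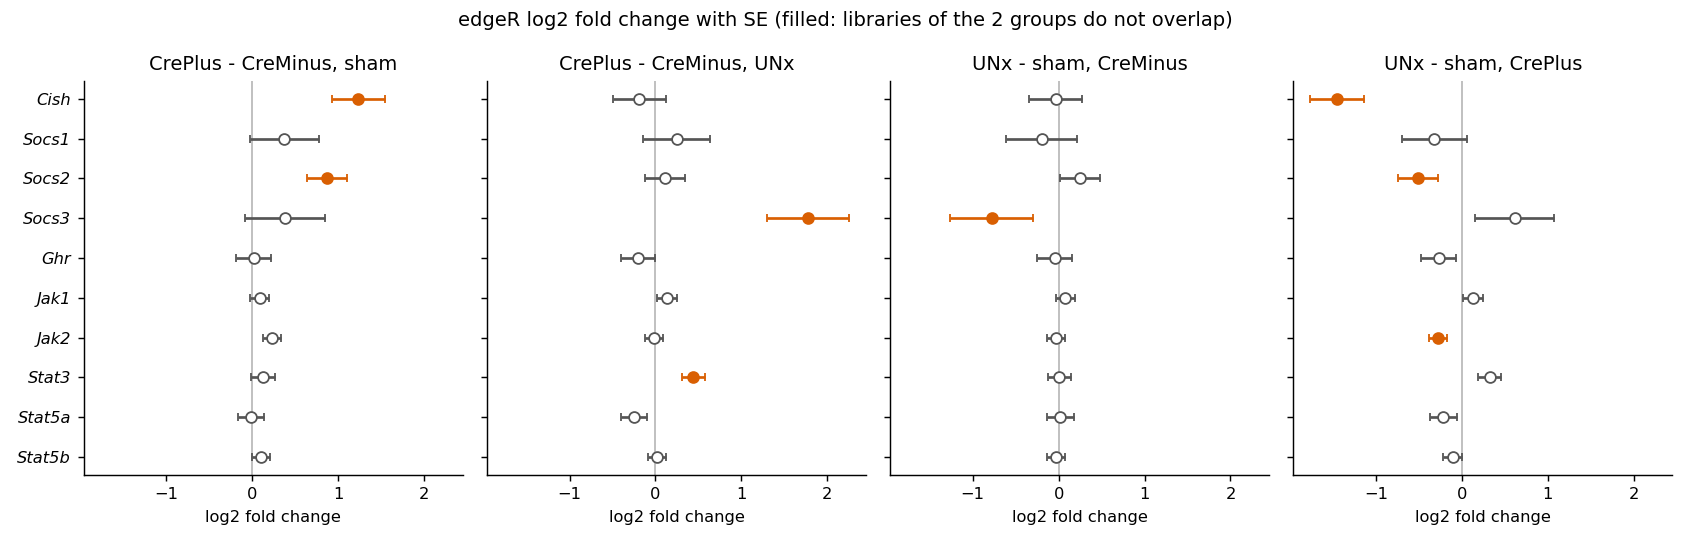
Log2 fold change with SE (horizontal axis) of the 10 genes in the 4 pairwise comparisons of groups, from edgeR; filled orange points mark genes whose libraries did not overlap between the 2 groups. Cish and Socs2 are filled in the left panel (1.23 and 0.87), Socs3 and Stat3 in the panel of UNx kidneys (1.77 and 0.44), Socs3 for UNx in CreMinus kidneys (-0.78), and Cish, Socs2 and Jak2 for UNx in CrePlus kidneys (-1.45, -0.51 and -0.27).

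Counted over the set, 0 of the 10 genes passed an adjusted p of 0.05 with edgeR in any comparison. Between CrePlus and CreMinus sham kidneys 0.0267% of all genes passed, and 2 of the 10 (Cish and Socs2) had an unadjusted p under 0.05, against 4.05% of all genes. The same 2 of 10 had no overlap between those groups, against 8.16% of all genes. Between UNx CrePlus and UNx CreMinus kidneys 0.140% of all genes passed. There 2 of the 10 (Socs3 and Stat3) had an unadjusted p under 0.05, against 10.7%, and 2 had no overlap, against 15.8%. For Cre averaged over surgery 0.521% of all genes passed, and 4 of the 10 had an unadjusted p under 0.05, against 11.8%; these were Cish, Socs2, Socs3 and Stat3. For the interaction of Cre and surgery, which asks whether the UNx difference depends on Cre, 0% passed. It is built from the nephrectomy differences, so its count is a description: 2 of the 10 (Cish and Socs2) had an unadjusted p under 0.05, against 1.85%. Cish enters all these counts through the choice of the genes, and nothing is read from its part in them. The log2 value of the interaction was -1.42 ± 0.43 for Cish, -0.76 ± 0.33 for Socs2 (adjusted p = 1.0), 1.39 ± 0.66 for Socs3 and 0.32 ± 0.19 for Stat3. In females alone the interaction was -1.07 for Socs2, -0.27 for Socs3 and 0.01 for Stat3, and with terms for sex and depth that of Socs2 was -0.38.

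The nephrectomy comparisons belong to the table the genes were taken from, and their counts are given as a description. With edgeR 0% of all genes passed for UNx against sham in CrePlus kidneys, in CreMinus kidneys or averaged. In CrePlus kidneys 4 of the 10 had an unadjusted p under 0.05, against 6.83% of all genes, and 3 had no overlap, against 9.78%. In CreMinus kidneys 0 of the 10 had an unadjusted p under 0.05, against 1.30%, and 1 had no overlap, against 4.86%. Averaged over Cre, 1 of the 10 (Cish) had an unadjusted p under 0.05, against 5.66%. When both CrePlus groups were set against both CreMinus groups, or both UNx groups against both sham groups, 0 of the 10 had no overlap, against 1.28% and 0.160% of all genes. DESeq2 called 1 of the 10 between the sham groups (Cish, against 0.306% of all genes) and 1 between the UNx groups (Socs3, against 1.21%). It called 1 for Cre averaged (Socs3, against 2.41%) and 1 for UNx in CrePlus kidneys (Cish, against 0.0456%). It called 0 of the 10 for UNx in CreMinus kidneys (against 0.0101%), UNx averaged (0.113%) and the interaction (0%). Cish is the gene around which the list was built, so its calls restate the values that prompted the choice and nothing is read from them. The median log2 difference of the 10 genes was 0.18 with Cre in sham kidneys and -0.24 with UNx in CrePlus kidneys, beside 0.00 and -0.01 over all genes. Both of these comparisons use the same sham CrePlus libraries. With Cre in UNx kidneys the median was 0.06, and with UNx in CreMinus kidneys it was -0.03, beside -0.01 and 0.00 over all genes.

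Around these genes, 6 lists of the pathway held 113 genes, of which 90 were tested. Of 32 cytokine receptor genes tested, 0 passed with edgeR in any comparison. Between the UNx groups 8 of them were higher and 1 lower in CrePlus kidneys at an unadjusted p under 0.05, against 10.7% of all genes in either direction. They had a median log2 difference of 0.38 beside -0.01 over all genes, and in sham kidneys the median was -0.03. Some of these genes were at low levels: Il2rb averaged 2.33 CPM in UNx CrePlus and 1.08 CPM in UNx CreMinus kidneys. The part of depth and cell types in this median was not tested. Ifngr2, a chain of the interferon gamma receptor, was at 27.8, 32.8 and 26.9 CPM in UNx CrePlus and at 22.9, 21.4 and 20.9 CPM in UNx CreMinus kidneys (0.42 ± 0.10, adjusted p = 0.195). Of 7 tested ligand genes 0 passed. Lif, a ligand of the gp130 family, was at 3.89, 4.28 and 1.28 CPM in UNx CrePlus kidneys and at 0.257, 0.598 and 0.760 in UNx CreMinus kidneys (2.60 ± 0.67, adjusted p = 0.239). In sham kidneys it was at 3.01, 0.813 and 0.741 CPM with Cre and 0.724, 0.376 and 0.374 CPM without it, again without overlap (1.63 ± 0.69). Averaged over surgery the Lif difference with Cre was 2.12 ± 0.48 and did not pass with edgeR (adjusted p = 0.0938). Of the other 6 JAK and STAT genes 0 passed. A list of 20 other regulators held SOCS genes, Pias genes, phosphatases, Sh2b adaptor genes and ubiquitin ligase parts, and not all of them turn the signal down. Of these genes 0 passed, and 0 had an unadjusted p under 0.05 with Cre in sham or in UNx kidneys. For Cre averaged 2 of them were lower at such a p, and for UNx in CrePlus kidneys 1 was higher.

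Among 17 tested genes known as STAT3 targets 0 passed with edgeR, but 6 were higher and 0 lower at an unadjusted p under 0.05 between the UNx groups, where 10.7% of all genes had such a p in either direction. Their median log2 difference with Cre was 0.79 in UNx and 0.10 in sham kidneys. The smallest p-values were those of the fibrinogen genes Fgg and Fgb, while the third fibrinogen gene, Fga, overlapped between the UNx groups (11.8 to 39.5 CPM against 11.8 to 20.2 CPM). Fgg was at 29.2, 24.7 and 9.80 CPM in UNx CrePlus and at 2.80, 1.66 and 2.13 CPM in UNx CreMinus kidneys (3.25 ± 0.69, adjusted p = 0.149). Fgb was at 3.92, 3.00 and 2.84 CPM against 0.231, 0.782 and 0.253 CPM (2.98 ± 0.69, adjusted p = 0.195). As with Socs3, the values of Fgg were highest in UNx CrePlus replicates 1 and 2, the male kidneys of that group, which held the most fibroblast reads. Timp1, of the same list, overlapped between the UNx groups (0.412 to 7.19 CPM with Cre against 0.231 to 0.874 CPM without it). The part of sex, depth and cell types in the median of the list was not tested.

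Of 10 tested genes known to respond to STAT5, 1 passed, the cell cycle inhibitor gene Cdkn1a, which p53 also switches on. It rose in CrePlus UNx kidneys by a log2 fold change of 1.96 ± 0.22 (edgeR, adjusted p = 0.00635), in a comparison where 0.140% of all genes passed, and with Cre averaged over surgery by 1.64 ± 0.15 (adjusted p = 0.00108). In sham kidneys Cdkn1a was at 23.5 ± 3.41 CPM with Cre and 9.42 ± 1.37 CPM without it (SD, n = 3), and the libraries did not overlap, but the difference of 1.32 ± 0.22 did not pass with edgeR (adjusted p = 0.136). The median of the list was 0.23 with Cre in UNx kidneys and -0.07 in sham kidneys. Because the list also holds Bcl6, which is lowered through STAT5, this median and the counts below do not measure STAT5 activity. With Cre in sham kidneys 1 was higher and 2 lower at an unadjusted p under 0.05, against 4.05% of all genes in either direction. In UNx kidneys 3 were higher and 0 lower, against 10.7%. Bcl6, a repressor gene that growth hormone lowers through STAT5 in liver, took nearly the opposite order of groups to that of Cish. It was at 10.9, 16.3 and 9.83 CPM in sham CrePlus kidneys, the 3 lowest values of all 12 libraries, and at 28.2, 32.0 and 32.6 CPM in sham CreMinus kidneys. It was at 79.5, 125 and 19.9 CPM in UNx CrePlus replicates 1, 2 and 3 and at 50.5, 20.3 and 22.9 CPM in UNx CreMinus kidneys. The 3 male UNx kidneys, which were lowest for Cish, were thus highest for Bcl6. All 3 were also in the deeper range of library totals. The male of the sham CrePlus group, replicate 3, had the most Cish and the least Bcl6 of all 12 libraries. Between UNx and sham CrePlus kidneys Bcl6 differed by a log2 fold change of 2.60 ± 0.57, which did not pass with edgeR (adjusted p = 0.692), and its interaction was 2.58 ± 0.77 (adjusted p = 1.0). The list did not move as 1: Igf1 averaged 14.5 ± 3.07 CPM in sham CrePlus and 15.6 ± 2.75 CPM in UNx CrePlus kidneys. Igfals, of the same list, averaged 25.6 ± 13.9 and 16.5 ± 4.83 CPM in these groups (SD, n = 3).

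Of 12800 other genes with a mean of at least 1 CPM, Plin4, Ihh, Tfeb, Mief1 and Fiz1 had the pattern most like that of Cish. Their Pearson correlations of log2 CPM with Cish over the 12 libraries were 0.89, 0.88, 0.87, 0.86 and 0.85, and their Spearman correlations were 0.81, 0.80, 0.78, 0.73 and 0.69. Plin4, a lipid droplet gene, was at 4.24, 5.26 and 8.25 CPM in sham CrePlus replicates 1, 2 and 3, so replicate 3 was highest as it was for Cish and for the fat markers. Ihh, the gene of the signalling protein Indian hedgehog, was at 28.7, 22.8 and 26.2 CPM in the same order, and averaged 16.9 ± 3.26 CPM in sham CreMinus and 17.5 ± 0.989 CPM in UNx CrePlus kidneys (SD, n = 3). Among the 9 other members the correlations with Cish were highest for Jak2 (Pearson 0.55) and Socs2 (0.54) and were -0.03 for Socs3 and -0.28 for Stat3. The libraries share groups, depth and sex, and the genes were picked for the correlation, so these values describe the 12 libraries only.

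Per kilobase of exon (GENCODE M21 union of exons, GRCm38), Ghr was the most abundant of the 10 genes, at a mean of 77.9 CPM per kilobase, followed by Jak1 at 23.7. Jak2 (11.6), Stat3 (9.70) and Stat5b (8.82) came next, with library ranges that overlapped. Cish averaged 4.91 and ranged from 2.39 to 12.1 CPM per kilobase over the libraries. On this measure it reached the levels of Stat3 and Stat5b in its highest library. For Cish and Socs1 the exon union (6419 and 2908 bases) was longer than the whole RefSeq span of the gene. Their values per kilobase are therefore low for a shorter transcript, and their ranks depend on the length used. Stat5a (2.48), Socs2 (2.10), Socs3 (1.50) and Socs1 (0.180) were lowest. From the lowest to the highest library Socs3 spanned 7.04-fold and Cish 5.06-fold, against 1.33-fold for Stat5b, 1.36-fold for Jak1 and 1.40-fold for Jak2. Cish (gene 12700) lies on chromosome 9 from 107296659 to 107302784, Socs2 (gene 216233) on chromosome 10 from 95383903 to 95417321 and Socs3 (gene 12702) on chromosome 11 from 117966079 to 117970336 (RefSeq, GRCm38). Stat5b, Stat5a and Stat3 lie next to each other on chromosome 11, between 100780731 and 100939594, and all 3 overlapped between the sham groups.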

How the data were processed

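RNA-seq counts of 12 mouse kidneys were analysed. The submitters' processing notes name HTSeq, DESeq2, cutadapt 1.11 and FastQC 0.11.5, with mm10 and GRCm38 as builds. Which aligner, gene annotation and strandedness the authors used is not given in the sources used here. Libraries were made with SMART-Seq v4, per the labels, a kit that does not mark strand, so reads of overlapping genes are not separated. The deposited tables hold raw counts, identical between tables, and the authors' mean normalized signal, log2 fold changes, test score, p-values and adjusted p-values, per the file headers. The 5 repeated symbols were kept once. Groups came from the sample descriptions; replicate numbers follow accession order and pair nothing. Nothing says whether libraries differ in litter or preparation, so a p-value measures only the spread among the 12 samples, which may in part be technical.

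In R 4.3.3, edgeR 4.0.16 (filterByExpr, TMM with factors 0.925 to 1.05, 4 group means, glmQLFit and glmQLFTest) was fitted to all 12 libraries, and p-values were Benjamini-Hochberg adjusted over 14970 genes. CPM used TMM-scaled library sizes. Each SE was derived as |log2 fold change|/√F. The fit was tested on simulated data. DESeq2 1.42.0, other scaling, no filter, sex and depth terms, subsets and leaving out each library were alternatives. The genes and lists were chosen with earlier results of these data known. Named were the 10 members, the called genes of each list or else those of smallest p, and the 5 genes most correlated with Cish (log2 CPM, prior count 2). A gene that this rule names is not reported here. Sex was read from Xist and Y-linked counts. The cell type marker sums and the order of the sexes were looked at as descriptions.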

Additional observations from a re-analysis of the deposited data

How the results depend on the processing

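The number of the 10 genes that passed was 0 with edgeR in every comparison and under every alternative that used edgeR, including each fit without 1 library (0 to 0). With DESeq2 it was 1 for Cre in sham kidneys, 1 for Cre in UNx kidneys, 1 for Cre averaged and 1 for UNx in CrePlus kidneys. With terms for sex and depth the log2 fold change of Cish was 0.31 for Cre in UNx kidneys, -0.85 for UNx in CrePlus kidneys and -0.95 for the interaction. Among the females alone it was -0.80 and -0.91 for the last 2. The cause was not tested. Over the fits without 1 library, the log2 fold change of Cish was 0.95 to 1.44 for Cre in sham, -0.42 to 0.04 for Cre in UNx, -1.68 to -1.17 for UNx in CrePlus and -0.26 to 0.20 for UNx in CreMinus kidneys, and -1.66 to -1.14 for the interaction. Those of Socs3 and Stat3 for Cre in UNx kidneys were 1.38 to 2.12 and 0.36 to 0.51, and their lowest adjusted p was 0.0697 and 0.167. The number of all genes called for Cre in sham kidneys was 4, and 0 to 43 under the alternatives. For Cre in UNx kidneys it was 21, and 5 to 188, and for Cre averaged it was 78, and 25 to 385 (the highest from DESeq2). Without UNx CrePlus replicate 3 the last 2 were 48 and 136, without UNx CreMinus replicate 3 they were 6 and 33, and without sham CreMinus replicate 1 they were 13 and 25. For UNx averaged it was 0, and up to 15, and for UNx in CrePlus kidneys 0, and up to 9. The fit of the 8 libraries of lower depth, added after the data were seen, holds no UNx CrePlus kidney. No paired analysis was possible because the labels give no replicate numbers. Among the 10 genes the fewest counts were those of Socs1, 9 to 26 per library. Some values of list genes rest on fewer. Fgb had 9, 17 and 5 counts in UNx CreMinus replicates 1, 2 and 3. Lif had 8 counts each in sham CreMinus replicates 2 and 3.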
